A study of Mus musculus with 6 samples.

Results

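Osteopontin, encoded by Spp1, and 5 genes for cell-surface receptors that bind it (Cd44, Itgav, Itgb3, Itga9 and Itga4) were followed through the differentiation of brown preadipocytes with and without a pretreatment with FGF8. These 6 genes are 6 of the 26264 gene symbols listed in each library. Spp1 was chosen by its measured rise of about 100-fold after 48 h of FGF8 and its later reversal, so its values against untreated cells are a description and carry no test, whereas the receptor genes were chosen by what their products bind. The data were 6 bulk RNA-seq libraries of 1 line of mouse brown preadipocytes (stromal vascular fraction of interscapular brown fat, genotype Bl6N, wild-type), which had been immortalized with SV40 large T antigen by retroviral transduction and puromycin selection. All libraries come from that line. Cells of the FGF8 libraries had received 5.5 nM FGF8 for 48 h at subconfluence, and the controls were called untreated in the sample labels and vehicle-treated in the methods. Cells were harvested at the end of this pretreatment (day 0), or after 2 days of adipogenic induction (insulin, T3, IBMX, dexamethasone, indomethacin and rosiglitazone) followed by 1 day (day 3) or 7 days (day 9) on differentiation medium. The titles call the last harvest D7, which is read here as the 7 days on differentiation medium. On that reading D3 and D7 are not counted from the same start. The growth protocol in the labels describes primary white cells, which goes against the titles and the series design.

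Each of the 6 conditions was 1 library, so within a day the 2 arms could not be set against replicates and were given no p-value. The untreated libraries held 16403254 (day 0), 19468173 (day 3) and 38551551 (day 9) counts, and the FGF8 libraries held 18083221, 38031701 and 34500934. "Normalized counts" are deposited counts scaled by median-of-ratios size factors. Log2 fold changes were taken after adding 1 to normalized counts and are given with a 95% exact binomial interval of the ratio of the 2 counts, which covers counting error only. In cells harvested before induction the preadipocyte markers Pdgfra and Dlk1 were abundant (46472 and 6409 counts in the untreated library of day 0) and Adipoq, the adipokine gene of mature fat cells, had at most 1 count, while at days 3 and 9 Adipoq had between 16715 and 47351 counts.

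Osteopontin is a secreted, phosphorylated glycoprotein of bone matrix and of inflamed and remodeling tissues, and adipose tissue is a known site of its expression. Cells attach to it through 2 neighboring stretches. The first is an Arg-Gly-Asp motif bound by integrins that contain the αv subunit (Itgav), among them its pair with the β3 subunit (Itgb3). The second follows directly, ends where thrombin cuts the protein, and is bound by the integrins formed by the α9 (Itga9) or α4 (Itga4) subunit with the β1 subunit (Itgb1). Cd44 encodes the receptor of hyaluronan, which has also been described as a receptor of osteopontin.

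Spp1 lies on chromosome 5 (104582165 to 104589235, plus strand, GRCm39, GENCODE M39 annotation). The coding sequence of both stretches is shown because it is what the receptors described here meet in the protein. It lies in exon 6 of 7 of the canonical transcript at chr5:104587341-104587379 (GRCm39, plus strand), with the capitals marking the 3 codons of the Arg-Gly-Asp motif. The 8 codons after the capitals cover the second stretch and the first codon past the thrombin site.

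Spp1, codons around Arg-Gly-Asp: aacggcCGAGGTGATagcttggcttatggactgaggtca

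The motif is at codon 144 of 294 in the canonical transcript, and 9 of 12 transcripts with an annotated coding sequence hold it. Those without it are a transcript of 48 codons and, annotated for nonsense-mediated decay, transcripts of 79 and 42 codons. Counts per gene do not show which transcript was made. The 250 bases before a start site of Spp1 are shown because genes for ETS factors are counted below. They come from the RefSeq promoter table (GRCm38.p6, chr5:104434861-104435110, plus strand), and the capitals mark matches to the letters AGGAAG (ETS) and TGTGGT (RUNX) on either strand.

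Spp1, before the start site: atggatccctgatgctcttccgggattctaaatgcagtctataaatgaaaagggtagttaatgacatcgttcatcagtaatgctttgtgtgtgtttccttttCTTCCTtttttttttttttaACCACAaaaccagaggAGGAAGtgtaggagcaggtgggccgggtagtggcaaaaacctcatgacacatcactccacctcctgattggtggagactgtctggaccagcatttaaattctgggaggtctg

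The window of 300 bases (250 before and 50 after the start) held 2 ETS matches, 1 on each strand, and 1 RUNX match on the reverse strand, with no overlap between them. TGANTCA (AP-1) was not among its letters. Over 32851 windows of this length, 35.4% held the ETS letters, 16.8% the RUNX letters and 7.81% the AP-1 letters. A second annotated start of Spp1 had 1 ETS match. Of the receptor genes, 4 had a window in the table (all but Itgb3), with 3 ETS matches for Cd44, 1 for Itgav, 1 RUNX match for Itga4 and 1 AP-1 match for Itga9. These matches are letters in a window and were not tested as binding sites.

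The transcript of osteopontin itself was high in a single library. Spp1 had 1714, 300.4 and 271.2 normalized counts in untreated cells at days 0, 3 and 9. In FGF8-pretreated cells it had 176491, 636.0 and 174.8. The FGF8 library of day 0 thus stood alone, and the other 5 libraries lay between 174.8 and 1714. The log2 fold change at day 0 was 6.69 (95% interval 6.60 to 6.77), or 103-fold, from 1167 and 137860 counts. Among the 10957 genes averaging 100 or more normalized counts in that pair, it had the 4th highest fold change. At day 3 the log2 fold change was 1.08 (0.87 to 1.30), which became 0.97, just under 2-fold, when libraries were scaled by total counts. At day 9 it was -0.63 (-0.88 to -0.39), with the FGF8 library 1.55-fold lower.

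Spp1 transcripts took up 0.762% of all counts in the FGF8 library of day 0 (exact 95% interval 0.758 to 0.766%), where the gene ranked 2 by counts. Per length, its level was 15414 TPM (counts divided by the summed exon length of the annotation and scaled to the same total in each library) and ranked 1 of 23897 genes. Its TPM in the untreated library of day 0 was 142.6, rank 1404. At day 3 Spp1 was 278-fold lower than at day 0 in FGF8-pretreated cells (log2 fold change -8.11, 95% interval -8.21 to -8.02) and 5.71-fold in untreated cells (-2.51, -2.72 to -2.31). At day 9 it was a further 3.64-fold lower in FGF8-pretreated cells (-1.86, -2.09 to -1.65), while in untreated cells the change was -0.15 with an interval that included 0 (-0.39 to 0.09). The difference between arms in these drops rests on the day 0 library that chose the gene and is given as values only.

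**Figure D1:**
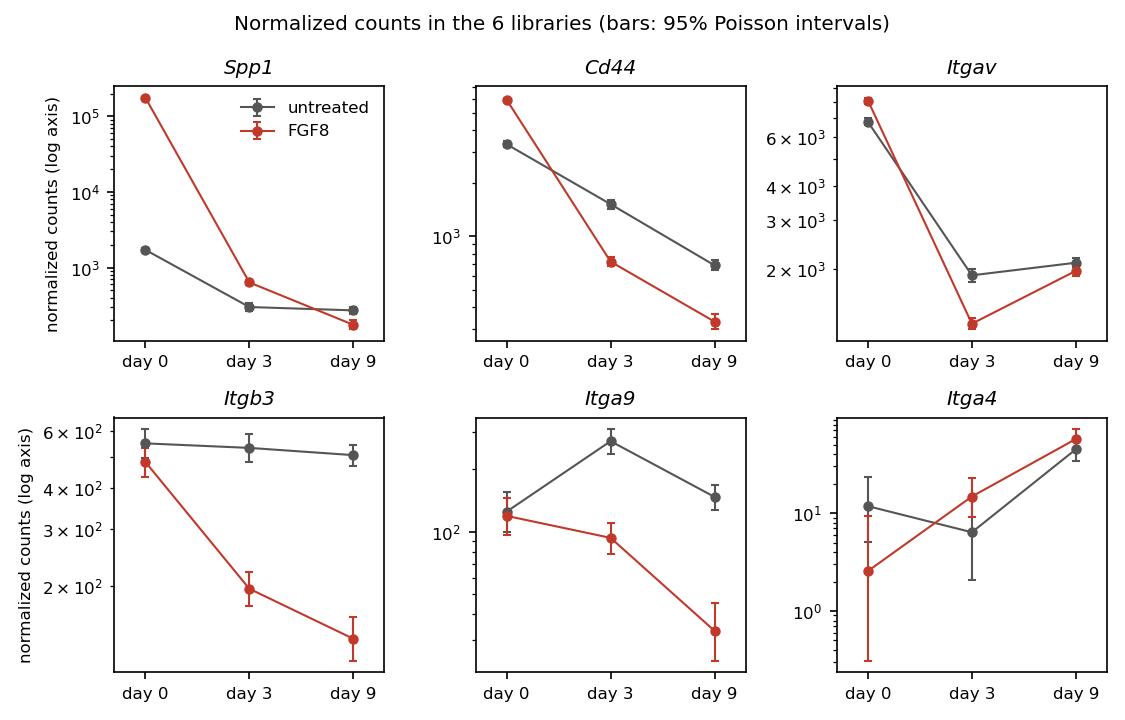
Normalized counts (log axis, a separate scale in each panel) of Spp1 and 5 receptor genes at days 0, 3 and 9 in untreated (gray) and FGF8-pretreated (red) cells, 1 library per point. Bars are 95% Poisson intervals and cover counting error only. Spp1 stands at 176491 in the FGF8 library of day 0 and between 174.8 and 1714 elsewhere, and Itgb3 is flat in untreated cells but lower in the FGF8 libraries of days 3 and 9.

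Macrophages and osteoblasts are known sources of osteopontin, and their markers were counted in each library. Of 15 listed macrophage genes, Adgre1, C1qa, C1qb and C1qc had 0 counts in all 6 libraries. The list summed to 194.6 normalized counts in the FGF8 library of day 0 against 315.8 in the untreated one, within a range of 186.2 to 315.8 over the libraries. Most of the sum was Cd14 (128, 100 and 106 counts in untreated and 99, 63 and 32 in FGF8-pretreated cells), Cd68 (27 to 141) and Trem2 (1 to 105). At day 0 Mrc1 had 5 counts without and 13 with FGF8, while Csf1r (31 against 4) and Lyz2 (22 against 1) were lower with FGF8. The osteoblast list (5 genes) summed to 71.7 against 47.0 at day 0, with Ibsp at 0 in all libraries and Dmp1 at 16 counts with and 0 without FGF8, and to 3281 without and 2515 with FGF8 at day 9, nearly all of it Alpl, a phosphatase gene that other cells also use. No T cell gene had over 3 counts. Endothelial markers (5 genes) summed to 1630 without and 71.7 with FGF8 at day 0 and to at most 212.5 later. Nearly all of the day 0 sum without FGF8 was Kdr (877 counts, 6 with FGF8) and Tek (222 counts, 33 with FGF8). Emcn had 7 counts without and 0 with FGF8 there, while Pecam1 (1 against 10) and Cdh5 (3 against 7) were higher with FGF8. The platelet list (4 genes) summed to between 84.5 and 514.6 and the mural cell list (4 genes) to between 62.7 and 449.3. Nearly all of the platelet sum was the integrin subunit gene Itga2b, with 218, 379 and 722 counts in untreated and 66, 301 and 283 in FGF8-pretreated cells. Pf4, Gp9 and Ppbp had at most 4 counts.

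The makeup of the cultures by stromal and adipocyte markers did differ between arms. Of 8 preadipocyte genes, all had counts above 3 in both libraries of day 0, and their levels summed to 133133 normalized counts without and 34240 with FGF8. It was 39318 against 10726 at day 3 and 31047 against 7148 at day 9, with Dpp4 at 0 in 3 libraries. Pdgfra, the receptor gene that marks adipose progenitors, had 46472 counts without and 7561 with FGF8 at day 0. Not all of the list went this way, since at day 0 Pi16 was 7.84-fold higher (47 against 423 counts) and Thy1 1.60-fold higher (1888 against 3458 counts) with FGF8. Of 6 adipocyte genes, all were above 3 counts in every library of days 3 and 9, and they summed to 357418 against 621664 at day 3 and to 495374 against 572710 at day 9. At day 0 their sum ran the other way, 8662 without and 2370 with FGF8, most of it Lpl (5617 and 1582 counts). Fabp4, the fatty acid binding protein of adipocytes, had 127665 counts without and 476041 with FGF8 at day 3. The brown adipocyte list (7 genes) summed to 2713 without and 2787 with FGF8 at day 0, 7985 against 14042 at day 3 and 41706 against 57304 at day 9. The part of these shifts in the receptor results below was not tested. In bulk RNA, fewer cells of a type and less RNA per cell cannot be told apart.

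Spp1 was chosen by its difference at day 0, so the receptor genes are set beside all genes here and not beside Spp1. Of the 5 receptor genes, 4 averaged 20 or more normalized counts in the pair of day 0 (Itga4 did not), and 0 of these 4 were 2-fold higher or lower in the FGF8 library, where 7.27% of 12657 genes were higher and 10.8% lower by the same rule. At day 3, 3 of 4 were at least 2-fold lower and 0 higher, against 12.1% lower and 3.8% higher over 12892 genes. At day 9, 3 of 5 were lower and 0 higher, against 8.74% lower and 1.12% higher over 13070 genes. The 3 lower genes were Cd44, Itgb3 and Itga9 at both days. Over days 0, 3 and 9, the receptor genes above this minimum had median log2 fold changes of 0.09, -1.26 and -1.05, beside 0.05, 0.08 and 0.08 for all genes.

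Cd44 (chromosome 2, 102641486 to 102732010, minus strand) had 3312, 1520 and 686.4 normalized counts in untreated cells at days 0, 3 and 9. In FGF8-pretreated cells it had 5904, 720.2 and 330.1. The FGF8 library was the higher one at day 0 and the lower one at days 3 and 9. Cd44 was 1.78-fold higher at day 0 (log2 fold change 0.83, 95% interval 0.76 to 0.91). It was lower by 2.11-fold at day 3 (-1.08, -1.20 to -0.96) and by 2.08-fold at day 9 (-1.05, -1.23 to -0.89). In both arms it was lower at each later day, and at day 9 it stood below day 0 by 4.83-fold in untreated and 17.9-fold in FGF8-pretreated cells.

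Itgav (chromosome 2, 83554403 to 83637260, plus strand), the αv subunit shared by several Arg-Gly-Asp receptors, had 6801, 1901 and 2111 normalized counts in untreated cells. With FGF8 it had 8122, 1272 and 1973. Both arms were high at day 0 and low at days 3 and 9, and the arms lay close together. After FGF8 its log2 fold change was 0.26 (0.20 to 0.31) before induction, -0.58 (-0.68 to -0.48) at day 3 and -0.10 (-0.18 to -0.02) by day 9. At day 3 Itgav was 3.58-fold lower than at day 0 in untreated and 6.39-fold lower in FGF8-pretreated cells.

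Itgb3 (chromosome 11, 104498826 to 104561302, plus strand), whose β3 subunit pairs with αv, differed in pattern from its partner. Its normalized counts in untreated cells were 549.4, 532.0 and 505.4, so that no step between days exceeded its counting interval. In FGF8-pretreated cells they were 481.4, 195.8 and 137.4. The arms overlapped within counting error at day 0 (log2 fold change -0.19, -0.40 to 0.02) and were apart by 2.72-fold at day 3 (-1.44, -1.67 to -1.22) and by 3.68-fold at day 9 (-1.87, -2.13 to -1.64). With the FGF8 library the lower one in 3 of 3 pairs, Itgb3 had the smallest p of the receptor genes in the fit over all days described below.

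Itga9 (chromosome 9, 118435722 to 118730072, plus strand) encodes the α9 subunit. It had 124.9, 272.4 and 146.9 normalized counts in untreated cells and 119.1, 93.4 and 33.3 with FGF8. The gene was highest in the untreated library of day 3 and lowest in the FGF8 library of day 9. The arms were not separated at day 0 (-0.07, -0.51 to 0.37), and then FGF8-pretreated cells had 2.92-fold less at day 3 (-1.54, -1.87 to -1.23) and 4.41-fold less at day 9 (-2.11, -2.66 to -1.65), the last from 41 counts. In untreated cells Itga9 was 2.18-fold higher at day 3 than at day 0 (1.12, 0.76 to 1.51), whereas in FGF8-pretreated cells the interval of this step included 0 (-0.35, -0.74 to 0.05).

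Itga4 (chromosome 2, 79085660 to 79163467, plus strand), the α4 subunit best known from leukocytes, was nearly absent at first. It had 8, 5 and 63 counts in untreated cells and 2, 21 and 70 with FGF8 (11.8, 6.36 and 44.7 against 2.56, 14.7 and 56.9 normalized counts). Both libraries of day 9 stood above the other 4. The interval of the FGF8 difference included 0 on each day (-5.47 to 0.13, -0.23 to 2.98 and -0.16 to 0.86), so no difference exceeded counting error. The few counts of days 0 and 3 leave room for 2-fold changes, whereas the interval of day 9 lies within 2-fold. From day 3 to day 9 Itga4 was 7.03-fold higher in untreated (95% interval 2.86 to 22.4) and 3.86-fold higher in FGF8-pretreated cells (2.34 to 6.62). Its exons overlap those of Cerkl on the opposite strand, a gene that had 2, 2 and 46 counts in untreated and 5, 12 and 43 in FGF8-pretreated cells. The strand setting of the counting is not given in the sources used here, so reads of the 2 genes may not have been told apart.

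**Figure D2:**
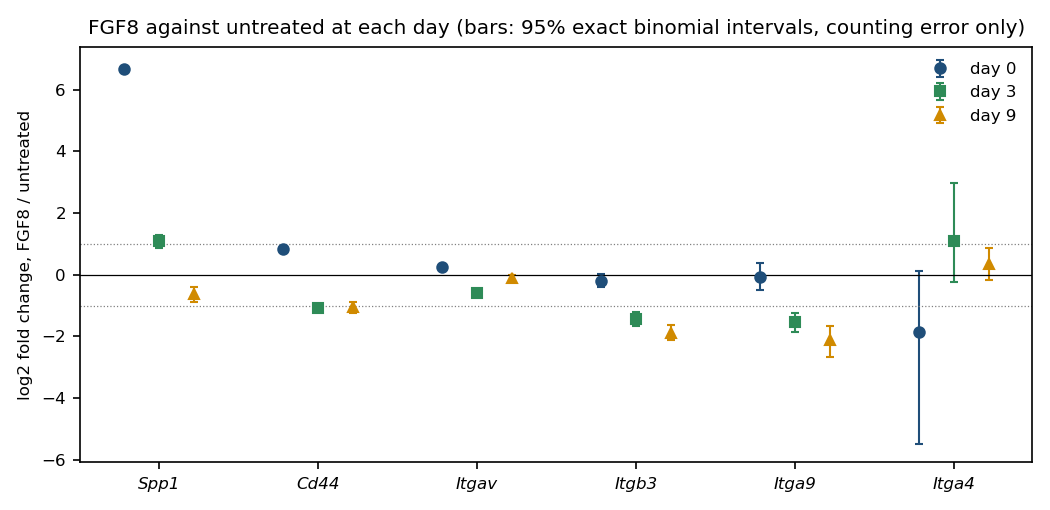
Log2 fold change of FGF8 against untreated cells for Spp1 and 5 receptor genes at day 0 (circles), day 3 (squares) and day 9 (triangles), 1 library against 1 library, with 95% exact binomial intervals that cover counting error only. Dotted lines mark 2-fold. Spp1 stands at 6.69 at day 0, and Cd44, Itgb3 and Itga9 lie below the lower line at days 3 and 9.

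Replicates being absent, the receptor genes were tested over all 6 libraries with edgeR's quasi-likelihood test and Benjamini-Hochberg adjustment over 14569 genes. For an FGF8 effect shared by the 3 days, with day as a block, the test called 3 genes higher (0.0206%) and 182 lower (1.25%), and 0 of the 5 receptor genes (2, Itgb3 and Itga9, at an unadjusted p under 0.05, and 1, Itgb3, with DESeq2). Itgb3 had a log2 fold change of -1.20 (SE 0.37, adjusted p = 0.158 in edgeR, range 0.00246 to 1 over the alternatives). For Itga9 it was -1.28 (SE 0.47, adjusted p = 0.197 in edgeR, range 0.00611 to 1). Cd44, Itgav and Itga4 had adjusted p-values of 0.553, 0.661 and 0.95 in edgeR. This fit takes as error any response that varies with the day. With the day 0 pair left out, the edgeR test called Cd44 (-1.10, adjusted p = 0.00364), Itgb3 (-1.69, adjusted p = 0.00246) and Itga9 (-1.85, adjusted p = 0.00611). That fit called 569 genes higher and 1661 lower of 14367 tested, so a call there is common. It had fewer residual degrees of freedom than the main fit. It also left out the pair in which no measured receptor gene was 2-fold apart.

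The change between days shared by both arms was tested with treatment as a term. Between day 0 and day 3, edgeR called 26.2% of the genes higher and 19.8% lower, so a call here is common. Itgav fell (log2 fold change -2.19, SE 0.26, adjusted p = 0.0052 in edgeR, range 8.69e-13 to 0.0387 over the alternatives, lower in 2 of 2 arms). Cd44 fell too (-2.12, SE 0.54, adjusted p = 0.0307 in edgeR, lower in 2 of 2 arms), but its adjusted p was 0.0695 without the untreated and 0.185 without the FGF8 library of day 3. Itgb3, Itga9 and Itga4 had adjusted p-values of 0.255, 0.620 and 0.550 in edgeR. Between day 3 and day 9 the test called 9 genes higher (0.0618%) and 1 lower (0.00686%), and 0 of the 5 receptor genes (0 of 5 also with DESeq2, and 1, Itga4, at an unadjusted p under 0.05). With either library of day 0 left out, the log2 fold changes of that step were -1.16 for Cd44, -1.19 for Itga9 and 2.24 for Itga4. The library of day 0 that remains has its own day term. Both fits therefore rest on the same libraries of days 3 and 9 and are not separate results.

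Levels of different genes were compared per length, as TPM in each library. In untreated preadipocytes at day 0 Spp1 (142.6), Itgav (130.4) and Cd44 (115.6) stood close together, followed by Itgb3 (19.6), Itga9 (3.82) and Itga4 (0.166). The counting intervals of Spp1 (134.5 to 151.0) and Itgav (126.6 to 134.2) did not overlap. With the longest transcript in place of all exons as the length, the order of these 3 turned to Itgav (149.6), Spp1 (113.2) and Cd44 (95.2). After FGF8, Spp1 (15414) was followed by Cd44 (216.4) and Itgav (163.5), with the order of the lower genes as before. By the longest transcript Itgav (185.8) lay above Cd44 (176.6) there. At day 9 in untreated cells the order was Itgav (34.0), Cd44 (20.1), Spp1 (18.9), Itgb3 (15.2), Itga9 (3.77) and Itga4 (0.531), and the intervals of Cd44 (18.9 to 21.4) and Spp1 (17.1 to 20.9) overlapped. With FGF8 the order was Itgav (30.6), Spp1 (11.8), Cd44 (9.31), Itgb3 (3.97), Itga9 (0.825) and Itga4 (0.650), and the intervals overlapped for Spp1 and Cd44 (10.2 to 13.4 and 8.43 to 10.3) and for Itga9 and Itga4 (0.592 to 1.12 and 0.507 to 0.822). The order of the last pair turned with the longest transcript (0.617 and 0.748).

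The partner subunits set the frame for these levels. Itgb1, the β1 subunit that pairs with α9 and α4, was the most abundant subunit listed in each of the 6 libraries, at 1649, 493.4 and 316.0 TPM in untreated and 2044, 282.5 and 217.5 TPM in FGF8-pretreated cells. In every library it exceeded Itga9 and Itga4. Itgb5, another β subunit that pairs with αv, had 176.1, 68.7 and 58.1 TPM in untreated and 94.96, 21.8 and 30.3 TPM with FGF8, and lay above Itgb3 in all 6 libraries.

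**Figure D3:**
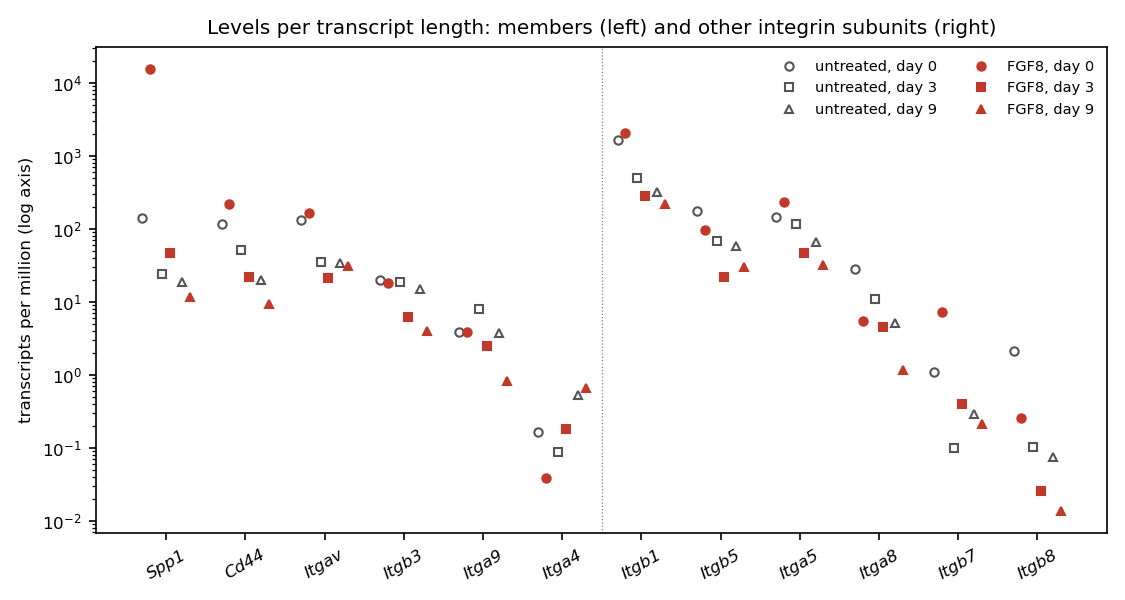
Level per length in TPM (log axis) of Spp1 and the 5 receptor genes (left) and of 6 further integrin subunit genes (right), 1 point per library, open for untreated and filled for FGF8 (circle day 0, square day 3, triangle day 9). Itgb1 lies between 217.5 and 2044 and above every receptor gene of the left side in each library, and Spp1 exceeds it in the FGF8 library of day 0.

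Of 7 other integrin subunit genes that pair with these receptors or bind osteopontin, 6 were measured at day 0, with 1 at least 2-fold higher and 2 lower (median log2 fold change -0.36). At days 3 and 9, 4 were measured, with 3 and 1 lower and 0 higher (medians -1.14 and -0.94). The shares of all genes at days 0, 3 and 9 were 7.27%, 3.8% and 1.12% higher and 10.8%, 12.1% and 8.74% lower. Itga8, an α subunit of Arg-Gly-Asp receptors, was lower on all 3 days, by 5.52-fold at day 0 (1300 against 235.6 normalized counts), 2.19-fold at day 3 and 4.27-fold at day 9. Itga5, the fibronectin receptor subunit, was 1.51-fold higher at day 0 (3278 against 4952 normalized counts) and 2.23-fold lower at day 3, the same turn as Cd44. Itgb5 was 2.84-fold lower at day 3 and Itgb1 was not 2-fold different on any day (0.24, -0.66 and -0.49).

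Spp1 belongs to a cluster of genes for bone and tooth matrix proteins, the SIBLING family. None of the other 4 (Dmp1, Ibsp, Mepe and Dspp) averaged 20 normalized counts on any day. Ibsp and Dspp had 0 counts in all 6 libraries and Mepe had 1 count in 1 library. Dmp1, singled out after its values were seen, had 16 counts with FGF8 at day 0, 0 in the untreated one and at most 2 elsewhere.

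Most other ligands of the same receptors were lower with FGF8 on each day. Of 13 ligand genes measured at day 0, 8 were at least 2-fold lower after FGF8 and 2 higher (median -1.24), and of 12 measured later 10 were lower at day 3 and 9 at day 9, with 0 higher (medians -1.69 and -1.49). Over all genes the shares lower were 10.8%, 12.1% and 8.74%, and the shares higher 7.27%, 3.8% and 1.12%. Tnc, the gene of tenascin-C, a ligand of α9 integrins, was higher with FGF8 at day 0 and lower later, and at day 3 it lay on the other side of the untreated library from Spp1. It had 6329 normalized counts without and 27735 with FGF8 at day 0 (4.38-fold higher), and was lower by 5.06-fold at day 3 and 2.99-fold at day 9. Edil3, an Arg-Gly-Asp ligand, was 2.32-fold higher at day 0 and had at most 20 counts later. Fn1 (fibronectin) was 1.65-fold higher at day 0, at 201673 normalized counts with FGF8, and 3.85-fold and 4.50-fold lower at days 3 and 9. Postn (periostin) was 12.1-fold lower with FGF8 at day 0 (244198 against 20207 normalized counts). Thbs1 (thrombospondin), Fbn1 (fibrillin), Vcam1, the classical ligand of α4, and Emilin1 were each at least 2-fold lower on all 3 days, with Thbs1 at 4.05-fold, 4.34-fold and 3.15-fold. Mfge8 was not 2-fold different on any day. The preadipocyte marker sum, lower with FGF8 on each of these days though Pi16 and Thy1 were higher at day 0, is given above, and its part in the ligand values was not tested.

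Around Cd44, 14 of 15 listed genes for hyaluronan turnover, shedding and membrane linkage were in the files. Of 12 measured at day 0, 2 were higher and 1 lower (median 0.17), of 13 at day 3, 3 were lower (median -0.45), and of 12 at day 9, 2 were lower (median -0.23). Among all genes 7.27%, 3.8% and 1.12% were higher and 10.8%, 12.1% and 8.74% lower on these days. Ezr (ezrin), which links Cd44 to the actin cortex, was 2.09-fold higher at day 0. Cemip, which takes part in hyaluronan breakdown, was 39.1-fold lower at day 0 (1002 against 25.6 normalized counts) and over 4-fold lower at days 3 and 9 (4.31-fold and 4.85-fold). Mmp14, a membrane protease that cleaves Cd44, was lower by 5.16-fold at day 3 and 3.37-fold at day 9. Has2, a main hyaluronan synthase gene, was not 2-fold different on any day.

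Of 12 genes for enzymes that cleave or modify osteopontin, 9 were measured at day 0, with 5 lower and 0 higher (median -1.26). At day 3, 4 of 7 were lower and 2 higher (median -1.09), and at day 9, 4 of 7 were lower and 0 higher (median -1.25). Over all genes 10.8%, 12.1% and 8.74% were lower and 7.27%, 3.8% and 1.12% higher at days 0, 3 and 9. Mmp3 (stromelysin), which cuts osteopontin near its motifs, had 1670, 502.7 and 2298 normalized counts in untreated and 467.3, 15.4 and 27.6 in FGF8-pretreated cells, 83.1-fold lower at day 9. Mmp9 was 9.87-fold lower at day 0. The plasminogen activator Plat was lower on all 3 days, by 2.39-fold, 4.56-fold and 8.16-fold, while Plau was 1.66-fold higher at day 0 and 3.75-fold and 4.40-fold lower later. Tgm2, a transglutaminase that crosslinks osteopontin, turned the other way, 8.09-fold lower at day 0 and 2.05-fold higher at day 3. Alpl, alkaline phosphatase, was 2.23-fold higher at day 3. The thrombin gene F2 had at most 16 counts.

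Among 16 genes for factors described at the Spp1 promoter, 15 were measured at day 0, with 2 higher and 2 lower (median 0.43). At day 3, 7 of 16 were lower and 0 higher (median -0.82), and at day 9, 4 of 15 were lower and 0 higher (median -0.39). Beside these stand 7.27%, 3.8% and 1.12% of all genes higher and 10.8%, 12.1% and 8.74% lower at days 0, 3 and 9. The 2 higher genes were both ETS factors known as targets of FGF signaling. Etv4 had 82.3, 48.4 and 17.7 normalized counts in untreated and 1763, 23.2 and 8.13 in FGF8-pretreated cells, 21.4-fold higher at day 0 and 2.09-fold lower at day 3. Etv5 had 287.9 without and 2518 with FGF8 at day 0 (8.75-fold higher) and was within 2-fold later. The ETS gene Ets1 and the osteoblast regulator Runx2 were within 2-fold at day 0 (log2 fold changes -0.16 and 0.45). Vdr, the vitamin D receptor, a classical inducer of Spp1, was 10.6-fold, 7.46-fold and 5.38-fold lower on the 3 days. Mitf (3.86-fold), Junb (2.63-fold), Runx2 (2.56-fold), the ETS gene Ets2 (2.28-fold) and Dlx5 (4.94-fold, at most 79 counts) were lower at day 3.

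Of 12 measured genes of the machinery that links integrins to the cytoskeleton, 1 was lower at day 0 (Tln2, 2.07-fold), 2 at day 3 (Src, 2.78-fold, and Zyx, 2.67-fold) and 0 at day 9, with 0 higher on any day (medians -0.17, -0.32 and -0.14). The counts at days 0 and 3 are near the 10.8% and 12.1% lower among all genes.

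**Figure D4:**
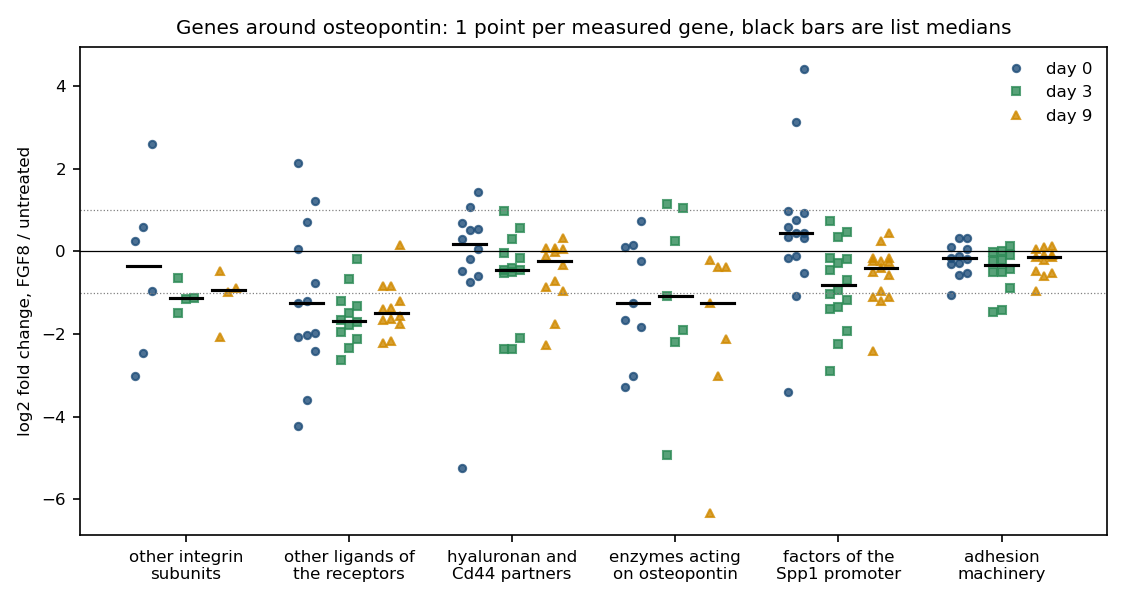
Log2 fold change of FGF8 against untreated cells at each day for 6 groups of genes around osteopontin, 1 point per gene averaging 20 or more normalized counts in the pair, 1 library against 1 library. Black bars are medians and dotted lines mark 2-fold. The ligand medians lie at -1.24, -1.69 and -1.49, and those of the adhesion machinery at -0.17, -0.32 and -0.14.

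The genes whose pattern was most like that of Spp1 were sought among 1078 genes averaging 100 or more normalized counts over the 6 libraries with a range of at least 4 on the log2 scale, by Pearson's r of log2(normalized count + 1) over the 6 libraries. Because Spp1 is set apart by 1 library, r mostly reads that library. Each of the 6 points is 1 culture and 1 library, so r is a description. The top 5 were AI593442 (0.983), Neto2 (0.975), Etv4 (0.967), Sema7a (0.966) and Alcam (0.965). Each reached the range of 4 only through the FGF8 library of day 0, by which Spp1 was chosen, so their rise there follows from the search. Neto2, an auxiliary subunit of kainate receptors, had 403.9, 292.7 and 188.1 normalized counts in untreated and 3812, 304.6 and 95.9 in FGF8-pretreated cells, the same order over the libraries as Spp1 (Spearman's rho 1.0). Sema7a, a semaphorin that binds β1 integrins, went from 148.4 to 5792 at day 0, and Alcam, an adhesion molecule, from 846.1 to 8558. AI593442 had 1461 normalized counts with and 13.2 without FGF8 at day 0, and 0 in the other 4. Among the receptor genes r with Spp1 was 0.84 for Cd44, 0.79 for Itgav, 0.36 for Itgb3, 0.13 for Itga9 and -0.77 for Itga4.

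**Figure D5:**
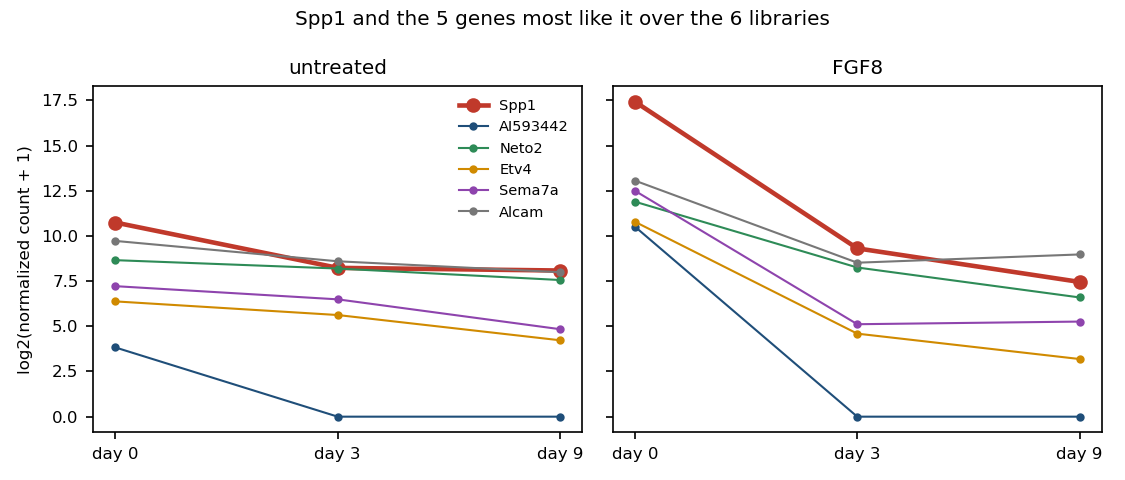
Log2(normalized count + 1) of Spp1 (thick red line) and of the 5 genes with the highest Pearson correlation with it over the 6 libraries, at days 0, 3 and 9 in untreated (left) and FGF8-pretreated cells (right). The 5 genes were picked by their likeness to Spp1, so that all 6 are highest with FGF8 at day 0 follows from the choice. Spp1 had 176491 normalized counts there.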

How the data were processed

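Poly(A) RNA of immortalized brown preadipocytes was sequenced as 150 bp paired reads from a stranded kit. After trimming (TrimGalore) and alignment to GRCm39 (mm39; HISAT2), the authors used featureCounts and deposited raw counts per gene, 1 file per library. Tool versions, annotation, strand setting and multi-mapper handling are not given in the sources used here. Groups came from the sample labels. No 2 libraries were identical.

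Counts were divided by DESeq2 (1.42.0) size factors. Fold changes used a pseudocount of 1 and Clopper-Pearson intervals. Genes averaging 20 or more normalized counts in a pair were called at 2-fold. edgeR 4.0.16 (TMM, filterByExpr, 2 residual degrees of freedom in the main fit, adjusted p under 0.05) was tested on simulated data. TPM used GENCODE M39 exon lengths (23897 symbols matched, 91%). Software was scipy 1.17.1 and pandas 2.3.3 in Python 3.11.15, and R 4.3.3.

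The genes, lists and tests were chosen with earlier results of these data known. Most listed genes past 2-fold on a day when averaging 100 or more normalized counts in that pair were named, not all with values for each day. Ccn1, Ccn2, Vegfc, Acp5 and Fam20c also passed and were counted without being named. A few others of a list, such as Ets1, Has2, Mfge8, F2 and the SIBLING genes, were named after their values were seen. Amino-acid sequences were not used here. Alternatives were other scalings, pseudocounts, filters and fold rules, DESeq2's Wald test, fits without a block or term, left-out libraries, the longest transcript for TPM and Spearman's rho.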

Additional observations from a re-analysis of the deposited data

Results flagged for a closer look

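Cd44, Itgav and Spp1 had FGF8 differences on opposite sides of 0 on different days, each outside its counting interval. For Spp1 the log2 fold change at day 0 exceeded that at day 9 by 7.32. Spp1 was chosen by its rise at day 0 and its later reversal, so its change of side follows from the choice. For Cd44 the change at day 0 exceeded that at day 3 by 1.91, and for Itgav by 0.84. With 1 library per condition the difference between days was not tested for any of these genes.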

How the results depend on the processing

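Each condition is 1 culture and 1 library, so the limits lie in replication more than in depth, except for Itga4 and Itga9, whose few counts leave wide intervals. The labels give no replicate numbers, so libraries were paired by day alone, through the day block of the FGF8 fit. Of 90 fold changes of the 6 genes under other scalings and pseudocounts, 88 stayed within their counting interval and kept their direction, and 2 moved, both of Itgav with total counts (0.31 at day 0 and -0.69 at day 3).

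Counts of genes past the fold rule followed the rule. At day 0, genes higher numbered 2331 without a filter, 2141 at 1.5-fold and 250 at 4-fold, and genes lower 2861, 2256 and 560. At day 3, genes higher numbered 1257, 2017 and 34 and, scaled by total counts, 298, and genes lower 3199, 2549 and 268. At day 9, genes higher numbered 623, 778 and 9 and, at a mean of at least 100, 79, and genes lower 2585, 1881, 354 and 726.

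For the FGF8 effect shared by the 3 days, DESeq2 called 472 genes higher and 1220 lower, edgeR without a filter 13 and 406, and edgeR without the day block 0 and 0 (575 genes at an unadjusted p under 0.05). With 1 day left out the range was 0 to 569 higher and 0 to 1661 lower, with the 0 for day 3 or day 9 left out (1510 and 1868 genes at an unadjusted p under 0.05). Between day 0 and day 3, 1671 genes were lower without the treatment term, and with 1 library left out the range was 926 to 4550 higher and 288 to 3904 lower. Between day 3 and day 9, DESeq2 called 851 higher and 468 lower, edgeR without a filter 199 and 69, edgeR without the treatment term 2 higher, and leaving out 1 library gave 0 to 1663 higher and 0 to 1575 lower. The cause of these differences was not tested.

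For single receptor genes in the FGF8 fit, Cd44 turned to 0.297 and Itgav to 0.046 without the day block, and Itga4 to -0.025 with DESeq2. With 1 day left out, Itgav ranged from -0.364 to 0.038 and Itga4 from -0.453 to 0.594, each changing sign without day 3. DESeq2 called Itgb3 lower in that fit (adjusted p = 0.0294 with DESeq2). Between day 0 and day 3, with 1 library left out, Itgb3 ranged from -1.34 to 0.126, Itga9 from -0.421 to 1.33 and Itga4 from -0.419 to 2.36 (-0.292 without the FGF8 library of day 3), with the change of sign when a library of day 0 or day 3 was missing. Between day 3 and day 9, Itgb3 ranged from -0.83 to 0.256, the last without the FGF8 library of day 9. None of these reversed values passed the threshold. Itga9 was called higher between day 0 and day 3 without the FGF8 library of day 0 (1.33, adjusted p = 0.026 in edgeR), and Itgb3 lower without the untreated one (-1.34, adjusted p = 0.00269 in edgeR). Per length, Spp1 in the FGF8 library of day 0 was 12128 TPM with the longest transcript in place of all exons, and some orders of levels turned, as given above. Spearman's rho ranked the genes like Spp1 differently from r, at 0.60 for Alcam and 0.71 for Sema7a.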
